A study of Rattus norvegicus with 63 samples.

Results

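Cytosolic ribosomal proteins were read across 63 Affymetrix arrays of rat prefrontal cortex (PFC) and striatum as those probe sets whose single annotated symbol starts with Rpl or Rps followed directly by a digit, or is Rplp0, Rplp1, Rplp2 or Rpsa, with the Rps6k kinases left out. The rule found 57 of the 31099 probe sets, which stand for 50 of the 14218 genes named on the array, 34 of the large subunit and 16 of the small subunit. Each gene was represented by its probe set of highest mean log2 signal. Rplp1 and Rplp2 were not among the genes the rule found, and 36 further ribosomal probe sets carry several symbols and are outside it. The symbols Rpl37-ps2 and Rps4x-ps1 are transcribed pseudogenes in the RefSeq table, and 48 of the 50 members could be matched to a RefSeq gene.

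The animals were male Wistar rats that arrived at 4 weeks of age and were injected 2 times a day for 7 days from 6 weeks of age. Drug-naive rats received saline in that week, and pretreated rats received methamphetamine, amphetamine or methylphenidate at 5 mg/kg. All rats then went through conditioned place preference and intravenous self-administration, and brains were collected on the day following their final test. Of the drug-naive groups, 1 was conditioned with saline and infused with saline (0.1 ml per infusion), and the others were conditioned with amphetamine at 1.25 or 5 mg/kg, methamphetamine at 1.25 or 5 mg/kg, or methylphenidate at 5 mg/kg. Pretreated groups were conditioned at 5 mg/kg with the stimulant of their pretreatment week, and the controls of that cohort received saline throughout. Amphetamine and methamphetamine were self-administered at 0.1 mg/kg per infusion and methylphenidate at 0.25 mg per 0.1 ml infusion, so infused doses were matched only between amphetamine and methamphetamine.

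The 31 PFC and 32 striatal arrays fell into 20 groups of 2 to 5 arrays. The labels describe rats chosen for robust self-administration and also speak of pooled RNA, so p-values measure the spread between these arrays. The striatal dissection held the rostral caudate putamen and the nucleus accumbens. In saline rats of the naive cohort all 7 tested markers of striatal projection neurons were higher in striatum (median log2 difference 3.74) and all 4 tested markers of cortical excitatory neurons were higher in PFC (median -3.51). In the naive striatum 1 array, methamphetamine 1.25 mg/kg replicate 1, carried a cortical profile (mean log2 signal of the cortical markers 9.27, against 5.91 to 6.50 in saline). For all stimulants against saline in the naive striatum 0 members were called with or without it.

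Ribosomal proteins form the protein part of the large and small subunits of the cytosolic ribosome, the large one joining amino acids and the small one reading the messenger RNA. Their messenger RNAs are among the most abundant of any cell, are made in near-equal proportion, and most start with a cytosine followed by a run of pyrimidines, the terminal oligopyrimidine (TOP) tract. Through that tract the protein Larp1 and the kinase complex mTORC1 control how strongly these messengers are translated, so that protein output can change with little change in messenger level. In neurons local translation and ribosome supply are studied in synaptic plasticity, and phosphorylation of Rps6 is a widely used marker of neuronal activity.

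The promoters of 43 members could be read from RefSeq (build GRCr8). The sequences below show, for 6 members with a long pyrimidine run at the annotated start and 2 paralogs without one, the sense strand from 40 bases before the start to 20 bases after it. Capitals mark the run of C and T nearest the start where it has 8 bases or more.
Rps23: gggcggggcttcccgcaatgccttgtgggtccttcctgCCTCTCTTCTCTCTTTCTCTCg
Rpl27a: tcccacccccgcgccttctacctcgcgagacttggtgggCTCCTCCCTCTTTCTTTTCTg
Rpl22: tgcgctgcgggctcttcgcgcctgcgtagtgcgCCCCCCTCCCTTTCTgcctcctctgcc
Rpl35a: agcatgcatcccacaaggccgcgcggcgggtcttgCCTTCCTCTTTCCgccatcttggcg
Rpl37a: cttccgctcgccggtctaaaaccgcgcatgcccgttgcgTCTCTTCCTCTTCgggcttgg
Rpl19: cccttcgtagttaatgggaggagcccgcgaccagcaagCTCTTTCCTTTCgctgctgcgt
Rpl26l1: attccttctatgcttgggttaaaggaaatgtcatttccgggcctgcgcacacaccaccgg
Rps27l: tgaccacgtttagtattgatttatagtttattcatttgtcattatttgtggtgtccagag

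In GRCr8 these windows are chr2:23814477-23814536 (plus strand) for Rps23, chr1:172974533-172974592 (plus) for Rpl27a, chr5:168117921-168117980 (plus) for Rpl22, chr11:81235002-81235061 (minus) for Rpl35a, chr9:81748051-81748110 (plus) for Rpl37a, chr10:83519024-83519083 (plus) for Rpl19, chr10:17029009-17029068 (minus) for Rpl26l1 and chr8:76443618-76443677 (plus) for Rps27l. A run of 8 or more C or T letters overlapping the stretch from 4 bases before to 10 bases after the start was present in 23 of the 43 members (53.5%). Those without one were not only paralogs, and included Rps6, Rps3, Rpsa and Rpl3, while Rpl3l, a paralog, had a run of 9. The share was 9.55% over the 11734 named genes with a promoter of the same length, 8.47% over 59 mitochondrial ribosomal protein genes and 50.0% over 14 other genes known for TOP tracts. On the opposite strand the run was present in 2.33% of the members and in 10.6% of the named genes. A run is a match of letters at the annotated start, and 7 members had no promoter in the table.

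Of the 50 members, 38 had a mean log2 signal of 12 or more over all arrays and 12 had a lower mean. Rpl14, a large-subunit protein, stood just inside that line at 12.94, and Rpl7l1, a nucleolar paralog of Rpl7, just outside it at 10.27. The brightest probe set was that of Rps29, at 14.24 to 15.51 over the arrays. Several dim probe sets belong to paralogs with restricted expression. Rpl3l, the muscle paralog of Rpl3, lay at 1.86 to 6.01, and Rpl39l1, a relative of Rpl39, at 4.03 to 7.58. The probe sets of Rpl28, Rpl30 and Rps13 were also dim, which describes those probe sets and not the genes, because signals of different probe sets cannot be compared. After the 40% of genes with the lowest mean signal were left out, 41 members were tested in the PFC, 42 in the striatum and 41 in fits over both regions. Rps27l, a p53-induced paralog of Rps27, passed only in the striatum, and 8 members passed in neither region.

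Over all arrays the members moved up and down together. With the group means removed, the median correlation between pairs of members was 0.916 over 31 PFC arrays and 0.872 over 32 striatal arrays, and a single component carried 85.1% and 80.3% of their variance. For comparison, the median pairwise correlation was 0.459 and 0.467 among mitochondrial ribosomal proteins, 0.285 and 0.166 among other TOP genes, and 0.031 and 0.051 among ribosome biogenesis genes. The points share arrays and the scaling of each array, and no test was made. Rps6, a small-subunit protein, followed the other members most closely in the PFC (r = 0.993), and Rpl34, a large-subunit protein, in the striatum (r = 0.982). In the PFC 38 of 41 members correlated above 0.8 with the mean of the rest, and the exceptions were Rpl37-ps2 (0.130), Rpl39 (0.189) and Rpl7l1 (0.263), all of low signal. In the striatum 37 of 42 did so, the exceptions being Rpl37-ps2 (0.070), Rpl7l1 (0.285), Rps27l (0.373), Rpl39 (0.423) and Rpl21 (0.696).

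**Figure D1:**
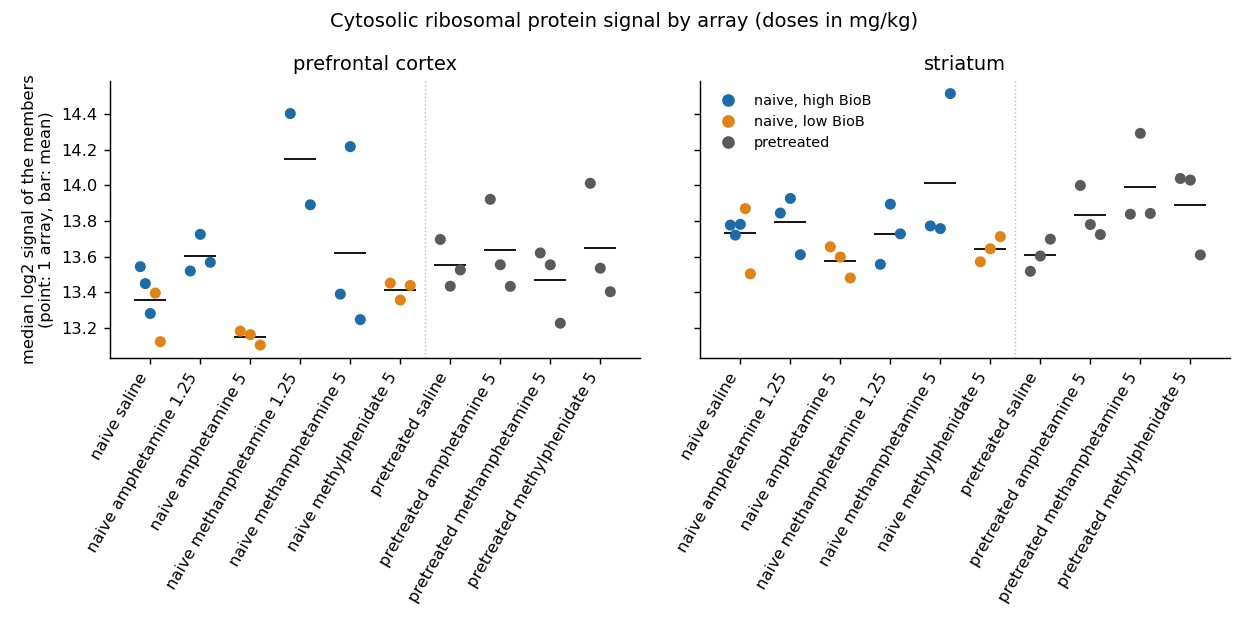
Median log2 signal of the 50 members on each of the 63 arrays, by group and region, with group means as bars and colours for the arrays of high and low BioB spike signal in the naive cohort and for the pretreated cohort. The highest arrays lie at 14.52, 14.40, 14.29 and 14.22, each in a methamphetamine group, and their group mates lie lower.

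The level of the whole set on an array also moved with transcripts that do not come from the rat. Affymetrix hybridisations contain prelabelled bacterial and phage spikes (BioB, BioC, BioD and Cre) in fixed amounts. By BioB the naive cohort had 23 bright arrays (log2 9.35 to 10.63) and 16 dim ones (5.96 to 6.68), while the 24 pretreated arrays lay at 9.01 to 10.21. The labels name no such grouping, and it is called the BioB array group here. Naive saline replicates 1 to 3, amphetamine 1.25 mg/kg and both methamphetamine doses were in the high group, and the low group held methylphenidate, the higher amphetamine dose and saline replicates 4 and 5. Within these array groups the Cre signal and the member median rose together. Pearson's r was 0.926 over 11 high-BioB PFC arrays (Spearman's rho 0.845, and r = 0.837 without the 2 arrays farthest from the median Cre signal), 0.798 over 8 low-BioB PFC arrays (0.643 and 0.676) and 0.826 over 12 pretreated PFC arrays (0.580 and 0.816). In the striatum r was 0.910 (rho 0.713, and 0.337 without the 2 farthest), 0.759 (0.452 and 0.308) and 0.790 (0.671 and 0.551) over 12, 8 and 12 arrays, so that among the naive striatal arrays the relation rested on the farthest arrays. BioB followed the members with r of 0.724 to 0.889 in the PFC sets and 0.822 in the pretreated striatum. In the naive striatum its r was 0.745 over high-BioB arrays (rho 0.476, -0.064 without the 2 farthest). Over low-BioB striatal arrays it was 0.089 (rho -0.214, 0.414 without them). BioC in the high-BioB striatum fell from 0.649 to -0.247 without the 2 farthest.

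The log2 ratio of the 3' to the 5' Gapdh control probe set, a measure of how far labelled RNA reaches towards the 5' end, also rose with the member median. In the high-BioB group r was 0.853 in the PFC (rho 0.700, 0.336 without the 2 farthest arrays) and 0.902 in the striatum (rho 0.545, 0.270 without them). In the pretreated cohort it was 0.653 in the PFC (rho 0.566, 0.443 without them) and 0.816 in the striatum (rho 0.762, 0.642 without them). In the low-BioB group it was 0.502 and 0.205. The beta-actin ratio showed less relation, between -0.182 and 0.618 over the same 6 sets of arrays. In all, 7 array measures were compared in each set, and because the members were chosen with earlier results known no p is given.

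**Figure D2:**
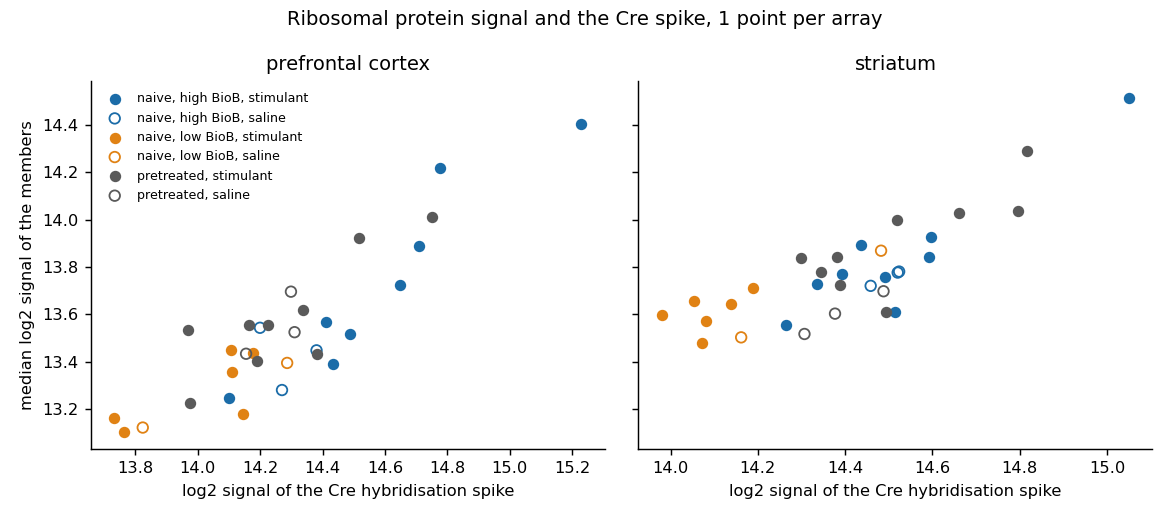
Median log2 signal of the 50 members (y axis) against the log2 signal of the Cre hybridisation spike (x axis), 1 point per array, in PFC and striatum, with open points for saline and filled points for stimulant arrays. Arrays of higher Cre signal have higher member medians, with r of 0.926 in high-BioB PFC arrays and 0.790 in pretreated striatal arrays. In the naive striatum r was 0.910 (high BioB) and 0.759 (low BioB). Without the 2 arrays farthest from the median Cre signal it was 0.337 and 0.308.

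Whether ribosomal protein messengers differ between stimulant and saline rats was asked first over all stimulants of a cohort. In the drug-naive PFC, 40 of 41 tested members were above saline on average, with a median log2 difference of 0.22, against a median of 0.0025 and 50.9% above 0 over all 8530 genes. By limma with Benjamini-Hochberg adjustment 0 members were called (0.0586% of genes were), and 12 had an unadjusted p under 0.05, against 745 of all 8530 genes. Rps6, the substrate of the S6 kinases, lay at a lowest, median and highest log2 signal of 13.40, 13.56 and 13.67 in the 5 saline arrays, and at 13.33 to 14.51 in the 14 stimulant arrays. The groups overlapped, and its mean difference was 0.24 (SE 0.11, adjusted p = 0.549). The smallest p belonged to Rpl5, a carrier of 5S RNA into the large subunit, at 0.26 (SE 0.11), Rpl3, a protein near the peptidyl transferase centre, at 0.24 (SE 0.10), and Rpl34 at 0.29 (SE 0.13), each with an adjusted p of 0.524. Rpl7l1 was the only tested member below 0, at -0.02 (SE 0.05, adjusted p = 0.944). The stalk protein Rplp0 differed by 0.18, the laminin receptor protein Rpsa by 0.21, Rpl22 by 0.26 and Rpl39 by 0.09, and none of them was called.

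In the drug-naive PFC this average held different values in the BioB array groups. Among the high-BioB arrays alone the member median was 0.37, with saline member medians of 13.28 to 13.54 and stimulant member medians of 13.25 to 14.40. Among the low-BioB arrays alone it was -3.81e-05, with saline at 13.12 to 13.39 and stimulants at 13.10 to 13.45. With BioB signal and array group as covariates it was 0.07. The share of the spike and labelling measures in the PFC difference was not tested beyond these values. Cell markers moved there as well. Of 7 tested oligodendrocyte genes 3 were above 0, with a median of -0.21, 4 had an unadjusted p under 0.05 and Mag, a myelin protein, was called lower (-0.53, SE 0.11, adjusted p = 0.0483). Neuron markers were above 0 in 1 of 6 genes (median -0.12), with 0 called and 1 at an unadjusted p under 0.05 by limma, and the haemoglobin gene Hbb differed by 1.78 (SE 0.41, adjusted p = 0.102). The part of these cells in the PFC difference was not tested.

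In the drug-naive striatum the members did not lie on one side of saline. Of 42 tested, 26 were above 0, the median log2 difference was 0.01 and the range -0.15 to 0.13. No member was called (0 of 42, with 0.0938% of genes called) and 0 had an unadjusted p under 0.05 by limma, against 984 of all 8530 genes. Rps6 spanned 13.72 to 13.99 in saline and 13.64 to 14.55 under stimulants. Its groups overlapped and the mean difference was 0.00 (SE 0.09, adjusted p = 0.995). Rps3, a small-subunit protein at the messenger entry site, differed by 0.13 (SE 0.11, adjusted p = 0.703), Rpl13a by 0.09 (SE 0.11) and Rps15 by 0.08 (SE 0.11). The lowest p below 0 belonged to Rpl37-ps2 (-0.15, SE 0.12, adjusted p = 0.681), Rpl7l1 (-0.03, SE 0.05) and Rpl39 (-0.12, SE 0.20). Rplp0 (0.03), Rpsa (0.01), Rpl3 (0.01), Rpl22 (-0.02) and Rps27l (-0.08) were not called.

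In the pretreated PFC 36 of 41 members were above saline, with a median log2 difference of 0.05 and a range of -0.10 to 0.14. Again 0 were called (0.0703% of genes) and 0 had an unadjusted p under 0.05 by limma. Rps6 read 13.84, 13.64 and 13.73 in the saline arrays, and 13.46 to 14.31 in the 9 stimulant arrays, which overlapped them on both sides (difference 0.10, SE 0.14, adjusted p = 0.9998). Rpl4 differed by 0.13 (SE 0.15), Rps24 by 0.14 (SE 0.16) and Rplp0 by 0.11 (SE 0.16), while Rpl7l1 (-0.10, SE 0.06), Rps9 (-0.04, SE 0.14) and Rps28 (-0.03, SE 0.15) were below 0, all with an adjusted p of 0.9998. Rpl22 differed by 0.07, Rpl3 by 0.04, Rpsa by 0.04 and Rpl39 by 0.01.

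The pretreated striatum had the highest member median among the 4 comparisons over all stimulants. Of 42 tested members 40 were above saline, with a median log2 difference of 0.31 against -0.01 over all genes, of which 47.3% were above 0. No member was called at an adjusted p under 0.05 (0.363% of genes were), while 31 of 42 had an unadjusted p under 0.05, against 1385 of 8530 genes. Rplp0 read 12.81, 12.81 and 12.88 in saline, 13.29, 13.16 and 13.20 under amphetamine, 13.15, 13.50 and 13.25 under methamphetamine, and 13.16, 13.26 and 12.79 under methylphenidate. Every stimulant array but methylphenidate replicate 3 was above the saline arrays, and the mean difference was 0.36 (SE 0.11, adjusted p = 0.111), the smallest p of any member. Rps28, a small-subunit protein, followed at 0.44 (SE 0.15, adjusted p = 0.144) and Rpl14 at 0.46 (SE 0.16, adjusted p = 0.153).

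Rps6 in the pretreated striatum read 13.68, 13.75 and 13.85 in saline and 13.87 to 14.37 in the 9 stimulant arrays, with no overlap (difference 0.29, SE 0.12, adjusted p = 0.225). In total 4 of 42 members did not overlap, namely Rps6, Rpl12, Rpl19 and Rps24, where 2.75% of genes had every stimulant array above every saline array. Rpsa differed by 0.35, Rpl22 by 0.39, Rpl3 by 0.22 and Rps27l by 0.30. The members below 0 were Rpl7l1 (-0.13, SE 0.06, adjusted p = 0.304) and Rpl39 (-0.19, SE 0.26, adjusted p = 0.757). Large-subunit members had a median of 0.33 and small-subunit members of 0.30. Without methylphenidate replicate 3 the count called was 2, and it was 0 without any other array. The share of genes called in these fits is not given here, so the counts do not set the members against other genes.

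Other measures moved with the members in the pretreated striatum. The Gapdh 3' to 5' log2 ratio spanned 0.74 to 1.04 on saline arrays, while stimulant arrays had 0.88 to 1.24, and the member median difference was 0.24 with that ratio as a covariate, 0.26 with the BioB signal and array group as covariates, and 0.12 after quantile normalization. Markers of cortical excitatory neurons, whose mean log2 signal over 5 genes spanned 5.62 to 6.55 on saline arrays and 6.06 to 7.80 with stimulants, had 3 of 3 tested genes above saline (Slc17a7 1.18, Bhlhe22 1.33, Neurod2 0.86), none called. Microglial markers, at 8.52 to 8.84 on saline arrays and 8.52 to 9.77 with stimulants, had 5 of 5 tested genes above saline with a median of 0.39, none called. Markers of striatal projection neurons lay at 12.60 to 12.77 over 7 genes on saline arrays and lower, at 12.25 to 12.54, on every stimulant array, with 0 of 7 genes above saline and a median of -0.27, where 0 were called and 0 had an unadjusted p under 0.05 by limma. General neuron markers were above saline in 1 of 5 tested genes (median -0.18), oligodendrocyte markers in 2 of 7 (-0.24) and astrocyte markers in 6 of 6 (0.18), none called, with 1, 2 and 2 genes at an unadjusted p under 0.05. The choroid plexus gene Ttr differed by 1.61 (SE 0.59, adjusted p = 0.186). Their part in the difference was not tested, and in tissue pieces a change in the mix of cells and a change in messenger per cell cannot be told apart.

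Taken by stimulant and dose, 1 of the 16 comparisons with saline called any member, and it was methamphetamine at 1.25 mg/kg in the drug-naive PFC. There 37 of 41 tested members were higher than saline, against 11.1% of genes called in either direction and 4.81% called higher. The median log2 difference was 0.74 and the range -0.13 to 0.95. The group holds 2 arrays, with member medians of 14.40 and 13.89 against 13.54, 13.45, 13.28, 13.39 and 13.12 in saline. In 38 of 41 members both arrays lay above every saline array, where 12.6% of genes did. Both arrays also lay below every saline array for the mean log2 signal of 6 neuron markers (11.64 and 11.80, against 11.85 to 12.01) and of 5 cortical excitatory neuron markers (8.75 and 8.70, against 8.76 to 9.54), and their part in the difference was not tested.

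Among the 6 largest rises Rpl14 read 13.93 and 13.32 in the methamphetamine arrays against 12.45 to 12.94 in saline, without overlap. Its log2 difference was 0.95 (SE 0.21, adjusted p = 0.0103). Rpl24, a late-joining large-subunit protein, rose from 12.90 to 13.38 in saline to 14.36 and 13.82, a difference of 0.91 (SE 0.19, adjusted p = 0.00775). Rpl12, a protein at the stalk base, rose by 0.89 (SE 0.19, adjusted p = 0.0096), Rps15a by 0.89 (SE 0.22, adjusted p = 0.0166), Rps24 by 0.88 (SE 0.20, adjusted p = 0.0139) and Rpl34 by 0.88 (SE 0.20, adjusted p = 0.0140). Rps24 read 14.88 and 14.16 against 13.39 to 13.86, and Rps15a 15.10 and 14.49 against 13.67 to 14.12. Both methamphetamine arrays were above every saline array for these genes, and replicate 1 was the higher in each.

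The other named members also rose in this comparison, Rplp0 by 0.70, Rpsa by 0.83, Rps6 by 0.73, Rpl22 by 0.86 and Rpl3 by 0.66, with adjusted p of 0.0158 to 0.0240. Those not called were Rpl7l1 (-0.13, SE 0.08, adjusted p = 0.285), Rpl37-ps2 (0.33, SE 0.13, adjusted p = 0.094), Rpl39 (0.48, SE 0.21, adjusted p = 0.124) and Rps9 (0.51, SE 0.18, adjusted p = 0.0568). The 38 members of high mean signal had a median of 0.76, and the 3 of lower signal that were tested had 0.33. Large-subunit and small-subunit members had medians of 0.74 and 0.75. The members with a pyrimidine run at the start had a median of 0.79 (19 tested) and those without one 0.72 (17 tested). Ribosomal probe sets outside the rule, 30 whose several symbols are all ribosomal, were above saline in 30 of 30 with a median of 0.79.

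**Figure D3:**
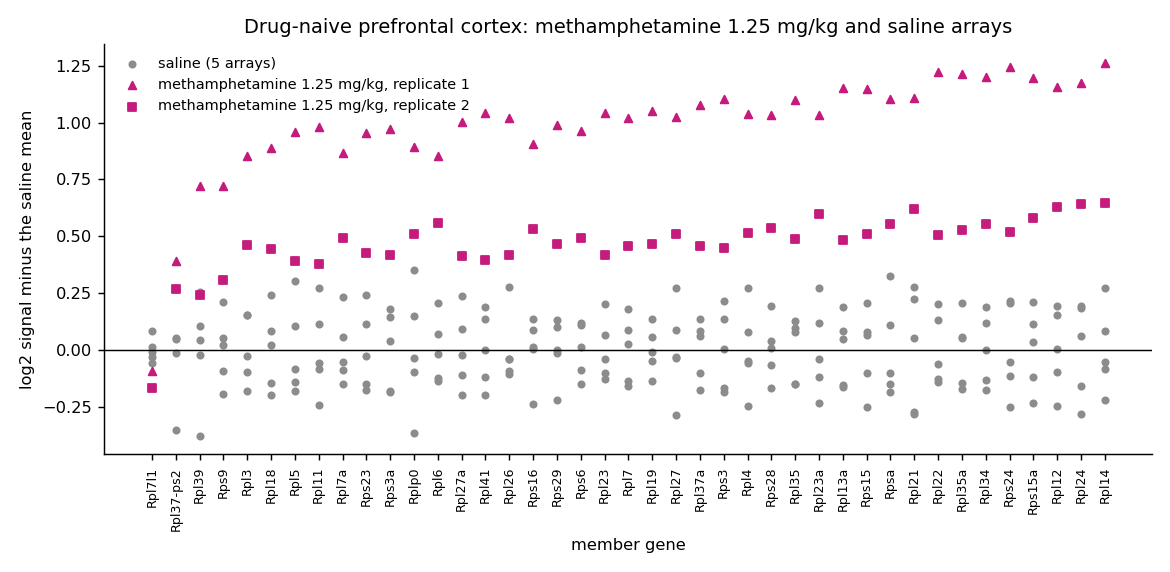
Log2 signal of each tested member minus its saline mean in the drug-naive PFC, for 5 saline arrays (grey) and the 2 methamphetamine 1.25 mg/kg arrays, with members ordered along the x axis by their difference. Replicate 1 lies above replicate 2 for 41 of 41 members, and 1 member, Rpl7l1, has both methamphetamine arrays below the saline mean.

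The call in the PFC at 1.25 mg/kg of methamphetamine rested on replicate 1. Without it 0 members were called and the median difference was 0.49, and without replicate 2 38 were called with a median of 1.03. Replicate 1 also had the highest Cre signal of the 31 PFC arrays, 15.23, and replicate 2 had 14.71, against 13.82 to 14.38 in saline. The Gapdh ratio was 0.80 and 0.42 against 0.25 to 0.37 in the saline arrays of the same BioB group. With the BioB signal and array group as covariates 0 members were called and the median was 0.20, and after quantile normalization 16 were called with a median of 0.32. Among high-BioB arrays alone, 2 against 3, 0 were called and the median was 0.72. With the array group as a block 27 were called. Leaving out either methamphetamine array leaves 1 array in that group. With all arrays 11.1% of all genes were called. The share of genes under these alternatives is not given here, so their counts do not set the members against other genes.

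The same stimulant and dose gave a member median of -0.02 in the drug-naive striatum, where 16 of 42 members were above 0 and 0 were called (0.188% of genes). Replicate 1 of that group is the array of cortical profile. Its member median was 13.56, next to 13.89 and 13.73 in the other arrays of the group and 13.78, 13.72, 13.78, 13.87 and 13.50 in saline. Without it the median difference was 0.06, with 34 of 42 members above 0 and 0 members or genes called. At 5 mg/kg methamphetamine had a median of 0.24 in the naive PFC (0.0352% of genes called) and 0.28 in the naive striatum (0.328%), with 0 members called in either. In both tissues 1 array of 3 carried the higher signal. The member medians were 13.39, 14.22 and 13.25 in the PFC and 13.77, 13.76 and 14.52 in the striatum, and the Cre signals 14.43, 14.78 and 14.10, and 14.39, 14.49 and 15.05. Rpl22, which binds RNA outside the ribosome as well, read 12.66, 13.76 and 12.55 in the PFC and 13.31, 13.32 and 14.40 in the striatum. The array that stood apart was the one of highest member median, replicate 2 in the PFC and replicate 3 in the striatum.

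Amphetamine at 1.25 mg/kg gave a median of 0.22 in the naive PFC, with 41 of 41 members above 0, and 0.05 in the naive striatum, with 33 of 42 above 0. At 5 mg/kg the medians were -0.18 and -0.15, with 1 of 41 and 1 of 42 members above 0. Methylphenidate at 5 mg/kg gave 0.08 in the naive PFC and -0.07 in the naive striatum, the latter -0.28 with the Gapdh ratio as a covariate. None of these comparisons called a member, where 0.492% and 0.34% of genes were called for amphetamine at 1.25 mg/kg, 0.0117% and 0 at 5 mg/kg, and 0 and 0.129% for methylphenidate. For Rplp0 amphetamine at 5 mg/kg read 12.64, 12.71 and 12.59 in the PFC, and saline read 12.82 and 12.55 in the arrays of the same BioB group and 12.88 to 13.27 in the others, so that the ranges overlapped only within the same array group.

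In the pretreated PFC the medians were 0.08 for amphetamine (0.0234% of genes called), -0.06 for methamphetamine (0.0117%) and 0.15 for methylphenidate (0.0938%). In the pretreated striatum they were 0.24 (0 of 8530 genes), 0.39 (0.703%) and 0.32 (0.0821%). In these 6 comparisons 0 members were called by limma. In the striatum 3, 27 and 15 members had an unadjusted p under 0.05, and in the PFC 0 did for each stimulant. The numbers over all genes at that limit are not given here, so these counts do not set the members against other genes. In 26 of 42 members every pretreated methamphetamine array of the striatum was above every saline array, where 11.1% of genes were. For Rpl22 the 3 methamphetamine arrays read 13.61, 14.25 and 13.67 and the saline arrays 13.20, 13.32 and 13.50, which did not overlap.

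**Figure D4:**
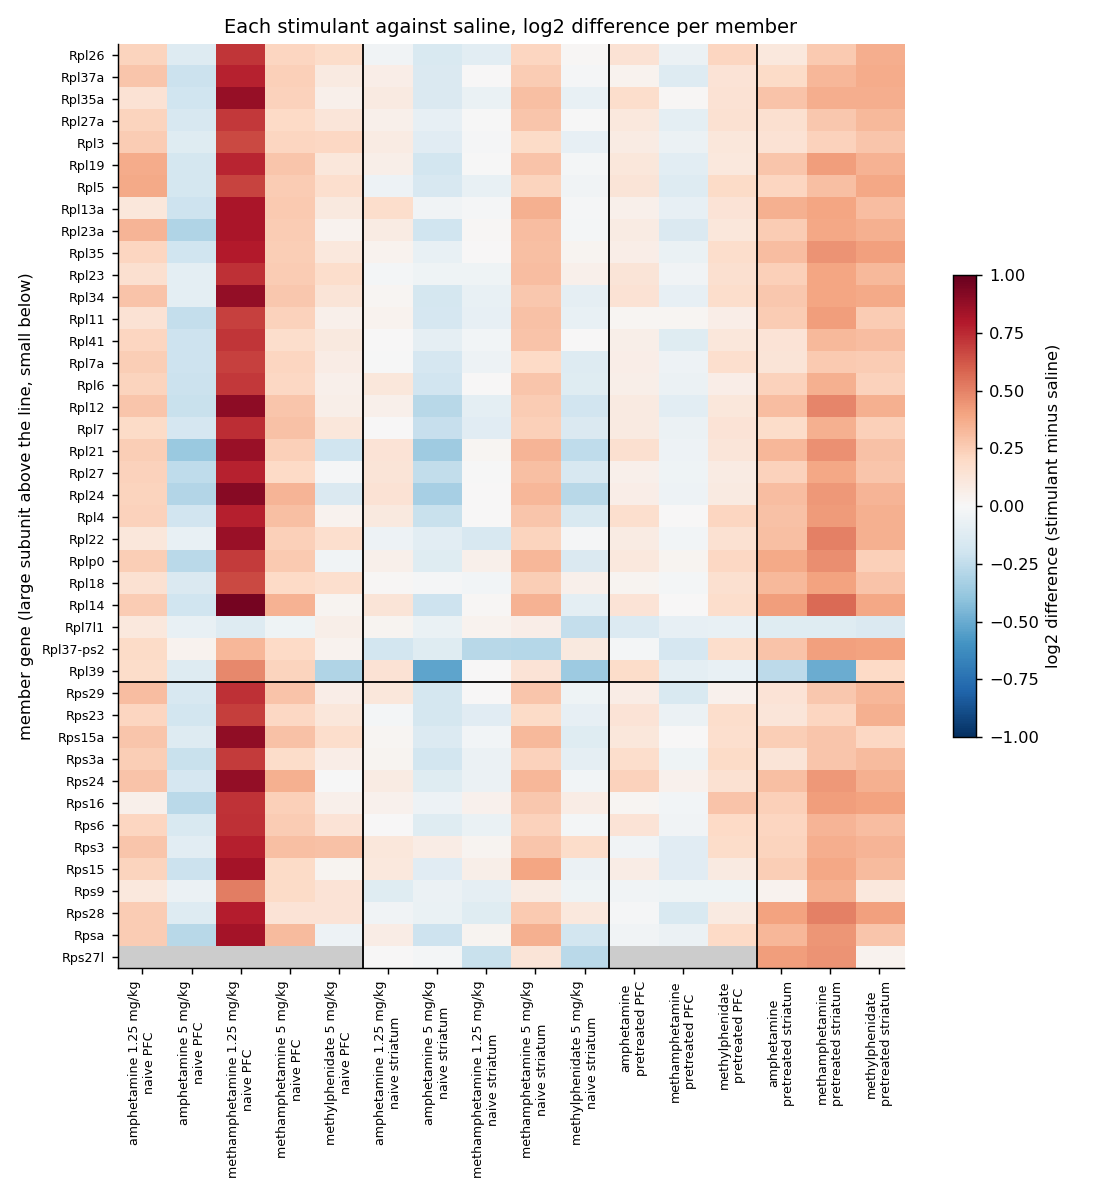
Log2 difference from saline for each tested member (rows, large subunit above the line and small subunit below, each by falling mean signal) in the 16 stimulant comparisons (columns), with untested cells in grey. Columns are nearly uniform, from a median of -0.18 for amphetamine 5 mg/kg to 0.74 for methamphetamine 1.25 mg/kg in the naive PFC, and Rpl7l1, Rpl37-ps2 and Rpl39 depart from the rest.

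Amphetamine and methamphetamine differ by an N-methyl group, and methylphenidate is a piperidine ester that shares the phenethylamine core. At matched conditioning doses of 5 mg/kg 12 pairs of stimulant groups were compared, with p-values adjusted over all genes within each pair. In the naive PFC members were lower with amphetamine than with methamphetamine by a median of 0.43 in 41 of 41 members (log2 difference -0.43), and in the naive striatum the median was -0.41. No member was called in either, where 1.45% and 1.58% of genes were, and these groups lie in different BioB array groups. For Rps6 the difference was -0.41 in the PFC (95% interval -0.76 to -0.05, adjusted p = 0.189) and -0.35 in the striatum (-0.65 to -0.06, adjusted p = 0.184). In the pretreated rats, whose arrays share 1 BioB level, the difference in Rps6 was 0.18 in the PFC (-0.18 to 0.53, adjusted p = 0.997) and -0.13 in the striatum (-0.42 to 0.17, adjusted p = 0.999).

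Between amphetamine and methylphenidate, which share the low BioB array group in the naive cohort, the member medians were -0.28 in the naive PFC, -0.09 in the naive striatum, -0.05 in the pretreated PFC and -0.07 in the pretreated striatum, with 0 members and 0 genes called in each by limma. With the Gapdh ratio as a covariate the direction turned in the striatum, to 0.04 in naive rats, where 30 of 42 members were above 0, and to 0.02 in pretreated rats. Rps6 differed by -0.29 in the naive PFC (95% interval -0.64 to 0.07) and by -0.10 in the naive striatum (-0.40 to 0.19). Between methamphetamine and methylphenidate the medians were 0.16 (0 members and 1.85% of genes called), 0.32, -0.21 and 0.07 in the same order, and 1 member was called over these 4 comparisons. This was Rpl7l1 in the naive striatum, higher with methamphetamine by 0.31 (SE 0.08, adjusted p = 0.0406, 1.57% of genes called). With the BioB array group as a block or the Gapdh ratio as a covariate that call was lost. Rps6 differed there by 0.25 (-0.05 to 0.54). These intervals do not show that the compounds act alike.

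Dose was compared within the naive cohort. From 1.25 to 5 mg/kg of amphetamine the members were lower in 41 of 41 in the PFC, with a median of -0.41, and Rpl23a (-0.63, SE 0.20, adjusted p = 0.0466) and Rpl5 (-0.56, SE 0.17, adjusted p = 0.0472) were called lower, where 7.07% of genes were called and 3.85% were called lower. Rpl5 read 14.14, 14.17 and 14.07 at the lower dose and 13.82, 13.47 and 13.41 at the higher, without overlap. The 2 doses lie in different BioB array groups, and with that group as a block 0 members were called and the median was -0.32. Amphetamine in the striatum gave a median of -0.20 (1.68% of genes called), and -0.38 with the Gapdh ratio as a covariate. For methamphetamine the medians were -0.50 in the PFC and 0.30 in the striatum, with 0 members and 0 genes called in each, and the striatal median was 0.22 without the array of cortical profile. For Rps6 the dose difference of methamphetamine was -0.47 in the PFC (95% interval -0.87 to -0.08) and 0.29 in the striatum (-0.0018 to 0.59).

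Whether pretreatment changed the response at 5 mg/kg was tested as the difference between the pretreated and the naive effect. In naive rats amphetamine and methylphenidate at that dose lie in the low BioB array group, methamphetamine in the high one, and saline in both. The pretreated arrays share a single BioB level, so the values below do not separate pretreatment from array group. In the striatum 41 of 42 members had a higher effect in pretreated than in naive rats, with a median difference of 0.29 on the log2 scale, and 0 were called (0.0586% of genes), with 7 at an unadjusted p under 0.05 by limma. The number over all genes at that limit is not given here. The smallest p belonged to Rpl12 (0.45, SE 0.18, adjusted p = 0.209) and Rplp0 (0.34, SE 0.14, adjusted p = 0.229). In the PFC the median was 0.01, with 21 of 41 members above 0 and 0 called (0.0117% of genes), 0 of them at an unadjusted p under 0.05. Between regions, the striatal minus the PFC effect had a median of -0.21 in naive rats, below 0 in 41 of 41 members, and 0.25 in pretreated rats, above 0 in 39 of 41. No member and 0 genes were called in either by limma, with 1 member at an unadjusted p under 0.05 in each.

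In the naive saline rats (5 against 5 arrays) 22 of the 41 tested members were higher in striatum than in PFC. The arrays of both regions were fitted as independent, and whether same-numbered arrays come from the same rat was not tested. All 41 lay above 0, with a median log2 difference of 0.33 and a range of 0.13 to 0.71, and 0 were called lower. The background was high, since 40.4% of all genes were called, 21.2% higher and 19.2% lower. In 13 of 41 members every striatal array was above every PFC array, where 12.3% of genes were. Rpl22 had the largest difference. It read 12.95, 12.69, 12.61, 12.88 and 12.62 in the PFC and 13.49, 13.43, 13.51, 13.61 and 13.23 in the striatum, with no overlap, a difference of 0.71 (SE 0.18, adjusted p = 0.0011). Rpl7, a large-subunit protein, differed by 0.51 (SE 0.14, adjusted p = 0.0029), Rpl34 by 0.46 (SE 0.15, adjusted p = 0.0122) and Rps28 by 0.46 (SE 0.14, adjusted p = 0.0088). Rps9 differed by 0.45 (SE 0.14, adjusted p = 0.0104) and Rps24 by 0.44 (SE 0.15, adjusted p = 0.0165). The smallest differences were those of Rpl7l1 (0.13), Rpl37-ps2 (0.16) and Rplp0 (0.18), none called.

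The saline rats of the pretreated cohort (3 against 3 arrays) showed smaller regional differences. There 30 of 41 members were above 0, the median was 0.04 and the range -0.14 to 0.39, and 0 were called by limma (27% of genes were), with 0 at an unadjusted p under 0.05. With the BioB signal and array group as covariates the direction turned, with a median of -0.20, 2 of 41 members above 0 and 3 called lower. The share of genes called with these covariates is not given here, so that count does not set the members against other genes. Rpl22 read 13.21, 12.94 and 13.07 in the PFC and 13.20, 13.32 and 13.50 in the striatum, and its difference was 0.27 (SE 0.23, adjusted p = 0.426). Rps24 differed by 0.21 (SE 0.20) and Rpl39 by 0.39 (SE 0.28), while Rpl13a (-0.14), Rpl14 (-0.12) and Rplp0 (-0.11) were below 0. The difference between the cohorts in this regional contrast was not tested.

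The naive regional count depended on the arrays used. With all arrays 40.4% of all genes were called. The share of genes under each alternative below is not given here, so these counts do not set the members against other genes. Among high-BioB saline arrays alone (3 against 3) the median was 0.32 and 0 members were called, and among low-BioB saline arrays (2 against 2) it was 0.38 with 26 called. It ranged from 10 without PFC saline replicate 5 to 26 without striatal saline replicate 5. Leaving out PFC saline replicate 3 gave 12, and leaving out striatal saline replicate 1, 3 or 4 gave 14, 14 and 11. With the Gapdh ratio as a covariate 13 were called, and with the BioB signal and array group as covariates 10, with a median of 0.16. Striatal saline arrays had a Gapdh ratio of 0.53 to 0.57 against 0.25 to 0.37 in the PFC within the high group, and 1.14 to 1.16 against 1.02 to 1.20 within the low group. Oligodendrocyte markers were also higher in the striatum in 7 of 7 tested genes (median 0.58), with a mean log2 signal over 7 genes of 12.76 to 13.00 in striatal and 12.02 to 12.46 in PFC saline arrays, and their part in the difference was not tested.

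**Figure D5:**
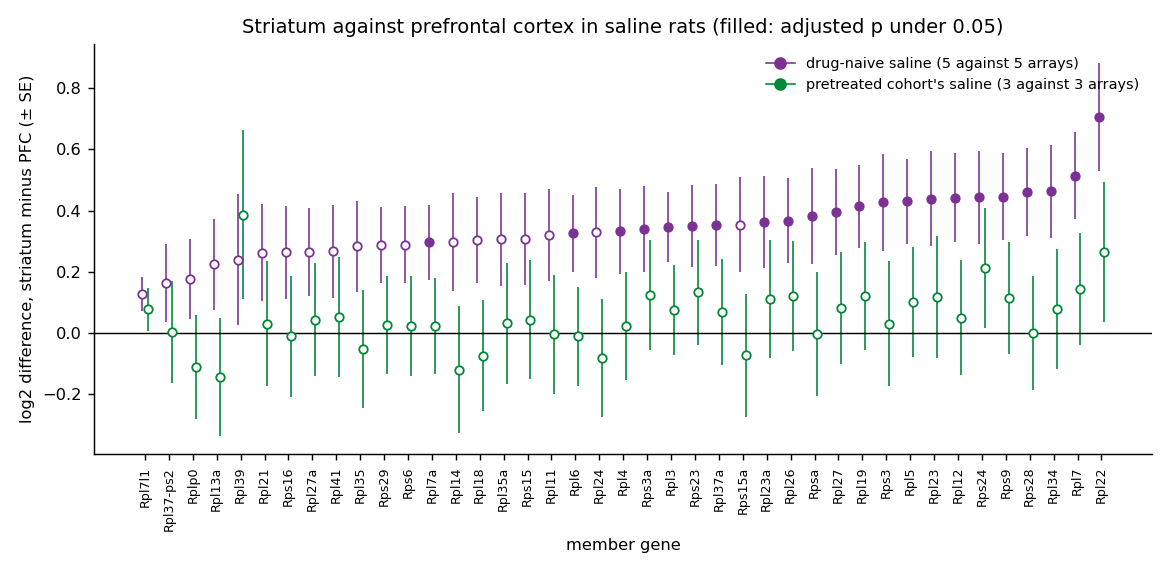
Log2 difference between striatum and PFC in saline rats (points, with the standard error as bars) for each tested member, in the naive and the pretreated cohort, with members ordered by the naive difference and filled points for an adjusted p under 0.05. All 41 naive differences are above 0, from 0.13 for Rpl7l1 to 0.71 for Rpl22, while those of the pretreated cohort lie around 0.04.

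Genes that make, regulate or work with the ribosome were read from lists beside the members. In the 4 comparisons of stimulants with saline no gene was called among 73 mitochondrial ribosomal proteins (72 in the striatum), 17 other TOP genes, 61 ribosome biogenesis and RNA polymerase I genes, 34 translation factors, 33 mTORC1 pathway genes and TOP regulators (32 in the striatum), or 6 genes of the p53 link of free ribosomal proteins. The TOP genes outside the rule had medians of 0.11 in the naive PFC, 0.01 in the naive striatum, 0.04 in the pretreated PFC and 0.17 in the pretreated striatum, next to 0.22, 0.01, 0.05 and 0.31 for the members. The mitochondrial ribosomal proteins had medians of 0.05, 0.03, -0.01 and 0.02 in the same order, ribosome biogenesis genes of 0.02, 0.03, 0.01 and -0.0045, translation factors of 0.02, -0.02, -0.01 and -0.04, and mTORC1 genes of -0.01, 0.01, 0.01 and 0.04.

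Between striatum and PFC in naive saline rats these lists held calls in both directions, where 40.4% of all genes were called, 21.2% higher and 19.2% lower. Of the 17 TOP genes 5 were higher and 1 lower (median 0.08), with the elongation factor Eef1a1 at 0.44 (SE 0.16), Naca, a subunit of the nascent polypeptide complex, at 0.39 (SE 0.13) and the importin Ipo5 at -0.40 (SE 0.10). Of the 73 mitochondrial ribosomal proteins 10 were higher and 5 lower (median 0.03), led by Mrpl52 at 0.69 (SE 0.15). Of the 61 ribosome biogenesis genes 11 were higher and 5 lower (median 0.04), with the pseudouridine synthase Dkc1 at 0.64 (SE 0.15) and Noc4l at -0.55 (SE 0.10). Of the 34 translation factors 4 were higher and 4 lower, with Eif3m at 0.50 (SE 0.11) and Eif4g1 at -0.47 (SE 0.11). Of the 32 genes of the mTORC1 list 7 were higher and 2 lower, led by the mTOR inhibitor Deptor at 1.26 (SE 0.14) and the GTPase Rragd at 0.65 (SE 0.15), with Depdc5, a subunit of the complex that restrains mTORC1, at -0.59 (SE 0.09).

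Where a member had more than 1 probe set, the further probe sets were dimmer. The 3 Rpsa probe sets differed by 0.83, 0.63 and 0.72 between methamphetamine at 1.25 mg/kg and saline in the naive PFC, and by 0.35, 0.40 and 0.36 between stimulants and saline in the pretreated striatum. The second Rpl3 probe set differed by 0.60 and 0.95 in these comparisons, next to 0.66 and 0.22 for the one used. The second Rps24 probe set, of mean log2 signal 6.90, differed by 0.22 and -0.04, next to 0.88 and 0.36. The second Rpl14 probe set, of mean log2 signal 4.86, differed by -0.01 and 0.88, next to 0.95 and 0.46. For Rpl7 the second probe set, of mean log2 signal 8.18, differed by 0.39 and -0.02, next to 0.74 and 0.26. Between striatum and PFC in naive saline rats it differed by 0.20, next to 0.51. For Rpl7l1 the second probe set, of mean log2 signal 9.53, differed by -0.06 and 0.01, next to -0.13 and -0.13. In the pretreated PFC it lay above saline by 0.13, where the one used was at -0.10.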

How the data were processed

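RNA of 63 samples was hybridised to Affymetrix rat arrays, 1 array per sample. The deposited values are probe set signal intensities that the authors made with MAS5, per the submitters' processing notes, with the version not given in the sources used here. Their trimmed mean (2% at each end) was 500.1 to 500.2 on each array, so arrays were scaled to a common level, and the number of arrays limits the precision. Signals under 1 (18232 values) were set to 1 and log2 was taken. Of 31099 probe sets, 20832 carried 1 gene symbol in the platform annotation, 436 several and 9831 none. Each gene kept its brightest probe set, and 8530 genes remained after the dimmest 40% by mean signal were dropped.

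Differences were tested with limma 3.58.1 in R 4.3.3, fitting a mean for each group and estimating the spread from every array of that region (from both regions for regional contrasts). Regional contrasts used no pairing of PFC and striatal arrays. P-values were adjusted over all genes tested by Benjamini-Hochberg, and an adjusted p under 0.05 was a call. The 95% intervals took limma's standard error with the residual degrees of freedom of the region's fit. They are therefore somewhat wider than intervals on the degrees of freedom of limma's own test. The procedure was tested on simulated data. Tables and figures used Python 3.11.15, numpy 2.4.6, pandas 2.3.3, scipy 1.17.1 and matplotlib 3.10.9. Members and lists were chosen with earlier results of these data known. Named were up to 6 called members with the largest rise and fall, or the 3 of smallest p in each direction where none was called. A fixed set of members (Rplp0, Rpsa, Rps6, Rpl3, Rpl22 and Rps27l) and up to 3 called genes of each other list were named as well. Some further members, such as Rpl39, are named beside these. Alternatives were quantile normalization, an added constant, other filters and probe set choices, blocks, covariates, subsets of arrays, and leaving out each array. The BioB signal as a covariate, the alternatives for methamphetamine at 1.25 mg/kg, and leaving out the striatal array of cortical profile from comparisons of single stimulants, were chosen after seeing the data.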

Additional observations from a re-analysis of the deposited data

Results flagged for a closer look

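In 10 of 84 groups of 4 to 10 saline values tested, 1 array stood apart from the others of its group by more than the 95% limit of Dixon's test, which chance passes in about 1 of 20 groups. Of these, 8 were low values of naive striatal saline replicate 5, an array of the low BioB group, at log2 signals of 13.5 for Rpl12, 13.2 for Rpl24, 13.21 for Rpl27, 14.16 for Rpl35a, 13.26 for Rpl4, 12.78 for Rplp0, 13.45 for Rps15 and 12.91 for Rpsa. The members move together, so these are not 8 separate events. Naive striatal saline replicate 4 stood apart for Rpl3 at 14.42, and naive PFC saline replicate 4 for Rpl26 at 14.6.

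In the striatum the member median at 5 mg/kg lay on opposite sides of the saline mean in the cohorts, on every array, for 2 stimulants. The mean member median was lower than saline by amphetamine in naive rats (-0.153) and higher in pretreated rats (0.228), a gap of 0.381. For methylphenidate the values were -0.088 and 0.287, a gap of 0.375. Several of these arrays overlapped saline. Naive saline arrays spanned 13.50 to 13.87, with naive amphetamine at 13.48 to 13.65 and naive methylphenidate at 13.57 to 13.71. Saline arrays of the pretreated cohort spanned 13.52 to 13.70, with methylphenidate at 13.61 to 14.04 and amphetamine above them at 13.72 to 14.00. The difference for each single stimulant was not tested, and both naive groups lie in the low BioB array group while 3 of their 5 saline arrays lie in the high one.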

How the results depend on the processing

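For methamphetamine at 1.25 mg/kg in the naive PFC, 37 members were called with a median of 0.74. The count was 16 (median 0.319) after quantile normalization, 0 among high-BioB arrays alone, and 0 (median 0.197) with the BioB signal and array group as covariates, an alternative chosen after seeing the data. Leaving out each array gave counts of 0 to 38 and medians of 0.487 to 1.034. For the naive regional contrast, 22 called with a median of 0.332, the count was 0 among high-BioB arrays alone, 13 with the Gapdh ratio as a covariate and 10 (median 0.165) with the BioB covariates. Leaving out each array gave counts of 10 to 26. The pretreated regional contrast had 3 members called lower (median -0.205) with the BioB covariates. The comparisons over all stimulants had 0 members called under every alternative but leaving out arrays in the pretreated striatum, where counts were 0 to 2. The dose comparison of amphetamine in the PFC had 2 members called, 0 (median -0.320) with the BioB array group as a block and 1 (median -0.494) with the Gapdh ratio as a covariate. With that ratio, 3 members were called between amphetamine and methamphetamine at 5 mg/kg in the naive striatum, against 0, and 1 without the striatal array of cortical profile, an alternative chosen after seeing the data for this pair. The shares of all genes called under these alternatives are not given here, so the counts do not set the members against other genes. The causes were not tested.

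Within a region the replicate numbers were not taken to pair arrays of different groups. In the naive cohort the median correlation of deviations over same-numbered arrays of a region was -0.019 in the PFC and -0.025 in the striatum. In the pretreated cohort it was 0.194 in the PFC and 0.027 in the striatum. These values do not bear on pairs between regions. Whether PFC and striatal arrays of the same number come from the same rat was not tested. With the replicate block 2 members were called for methamphetamine at 1.25 mg/kg (median 0.645), and no other count over all stimulants or between regions moved. Of 1804 values for named members under the alternatives, 1711 kept their side of the threshold, or were uncalled and moved by less than the spread, 72 fell below the threshold, 7 passed it and 14 moved beyond the spread. No member called as reported changed sign, but 69 of these values, from 21 of 70 results, all uncalled as reported, had the other sign. Of 277 member medians 19 had the other sign, among them the naive striatum over all stimulants (-0.04 to 0.04 over left-out arrays). Groups of 2 to 5 arrays limit what can be seen.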
